A study of Homo sapiens with 4 samples.

Results

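The genes described here are the well expressed members of the ZNF family, the largest group of zinc finger genes in the human genome. They were chosen by name and by level: protein-coding genes with a ZNF symbol, each represented by its brightest probe set, whose log2 value averaged at least 7 over all 4 arrays. Of 467 such genes named on the array, 130 met this bound, 243 lay between it and the intensity filter of the gene test (the median of all probe sets, 4.59) and 94 lay under the filter. The 130 genes are part of 14884 named genes, of which 10696 passed the filter and were tested. All 130 passed the filter, since the bound lies above it. Name and level are the rule, so their level is no finding. The rule uses no difference between the siRNAs, although the family was taken up with earlier results of these data known.

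The cells were U2OS, a human osteosarcoma line. One group was transfected with siRNA against BRPF3 and the other with a scrambled control siRNA, each at 50 nM, and RNA was taken after 48 hours. There were 2 arrays of each group. The labels call them biological replicates without saying whether the cultures were grown apart. The p-values therefore reflect only the spread between these arrays, that of the gene itself combined with that of all genes tested. BRPF3 itself was not analysed here, because the annotation used names no probe set for it, so the knockdown was not checked. The labels describe 1 siRNA treatment against BRPF3 and give no sequence, and effects of the siRNA on other targets cannot be told apart from effects of losing BRPF3.

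BRPF3 is a bromodomain protein that holds together complexes of the histone acetyltransferase KAT7. The ZNF family is made up mostly of C2H2 zinc finger proteins, in which tandem fingers, each folded around a zinc ion, read successive short stretches of DNA. Many carry a KRAB box, which binds the corepressor TRIM28; TRIM28 in turn gathers the H3K9 methyltransferase SETDB1, HP1 proteins and histone deacetylases, and so silences transposable elements and other targets. Large clusters of such genes lie on chromosome 19. Other proteins with a ZNF symbol act in RNA processing, ribosome assembly or the cytoskeleton and do not work through KRAB.

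U2OS identity was only partly open to a check. Of 15 bone and mesenchymal genes listed, 8 were named on the array. By their means over the 4 arrays the mesenchymal marker VIM (10.42), BMP4 (11.16), SPP1 (6.80), the bone regulator RUNX2 (6.39) and SP7 (4.66) lay above the filter. PTH1R (4.43), TWIST1 (3.20) and the bone matrix gene IBSP (2.60) lay under it. Markers of other cell types lay on both sides of the filter. Of 9 epithelial genes named, 6 lay above it, KRT18 (10.16), EPCAM (8.05), CLDN4 (6.82), KRT8 (6.46), CLDN7 (5.27) and KRT19 (4.77). Of 5 leukocyte genes, CD68 (8.55), LAPTM5 (5.79) and TYROBP (5.17) lay above it and CD14 (4.10) and LYZ (3.30) under it. Of 6 endothelial genes, ERG (6.77) and CLDN5 (5.59) lay above it and VWF (4.49), TIE1 (4.39), KDR (4.13) and PECAM1 (3.29) under it. Among tested markers 1 of 5 bone genes (BMP4, -0.81), 1 of 6 epithelial genes (KRT18, -0.49) and 1 of 3 leukocyte genes (LAPTM5, -0.88) fell (log2 differences, BRPF3 siRNA minus control siRNA), 0 of 2 endothelial genes were called and none of the 16 rose. Their part in the results below was not tested.

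Few of the well expressed ZNF genes differed between the siRNAs. After BRPF3 siRNA 4 of the 130 rose and 9 fell, and the other 117 were not called (limma's moderated test, Benjamini-Hochberg adjusted p under 0.05 over all 10696 genes). That is 10.0% of the members, where 15.8% of all genes tested were called and 19.4% of the 5196 tested genes that also averaged at least 7. By direction, 6.32% of all genes tested rose and 9.44% fell. A share at or under the background is no result about the members as a group, and the difference between these shares was not tested. The split depended on the scaling: 5 members rose and 4 fell after quantile normalization, and 4 rose and 4 fell after cyclic loess. With 1 array left out few or none of the members were called, and far fewer of all genes tested as well.

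**Figure D1:**
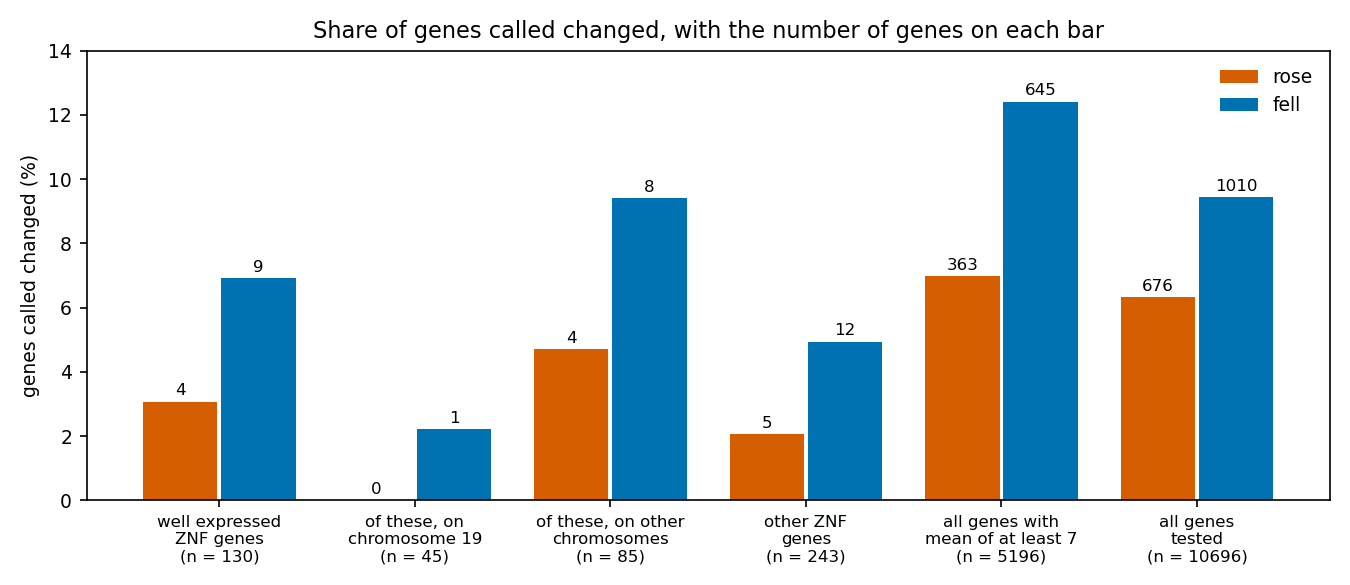
Percentage of genes called changed by limma at an adjusted p under 0.05, risen (orange) and fallen (blue), in 6 sets of genes, with the number of genes above each bar and the size of the set under it. The bars of the 130 well expressed ZNF genes stand for 4 risen and 9 fallen genes and are lower than those of all genes with a mean of at least 7.

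Differences were small throughout the family. The median log2 difference (BRPF3 siRNA minus control siRNA) of the 130 genes was -0.05, with quartiles of -0.19 and 0.07, beside -0.03 over all genes tested and -0.06 over those with a mean of at least 7. After quantile normalization the median of the members was 0.01, so its sign rests on the scaling. In 84 of the 130 genes (64.6%) the difference was under 0.2 in size, against 57.2% of all genes tested. A difference of at least 1.5-fold was found for 2 members (1.54%, against 5.10% of all genes tested), and 0 reached 2-fold. The arrays of the groups did not overlap for 77 members, 30 of them higher and 47 lower after BRPF3 siRNA, 59.2% of the members, against 63.2% of all genes tested and 72.5% of those with a mean of at least 7. The smallest called difference among the members was 0.32 in size, so smaller shifts of single genes were mostly beyond the reach of this test.

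**Figure D2:**
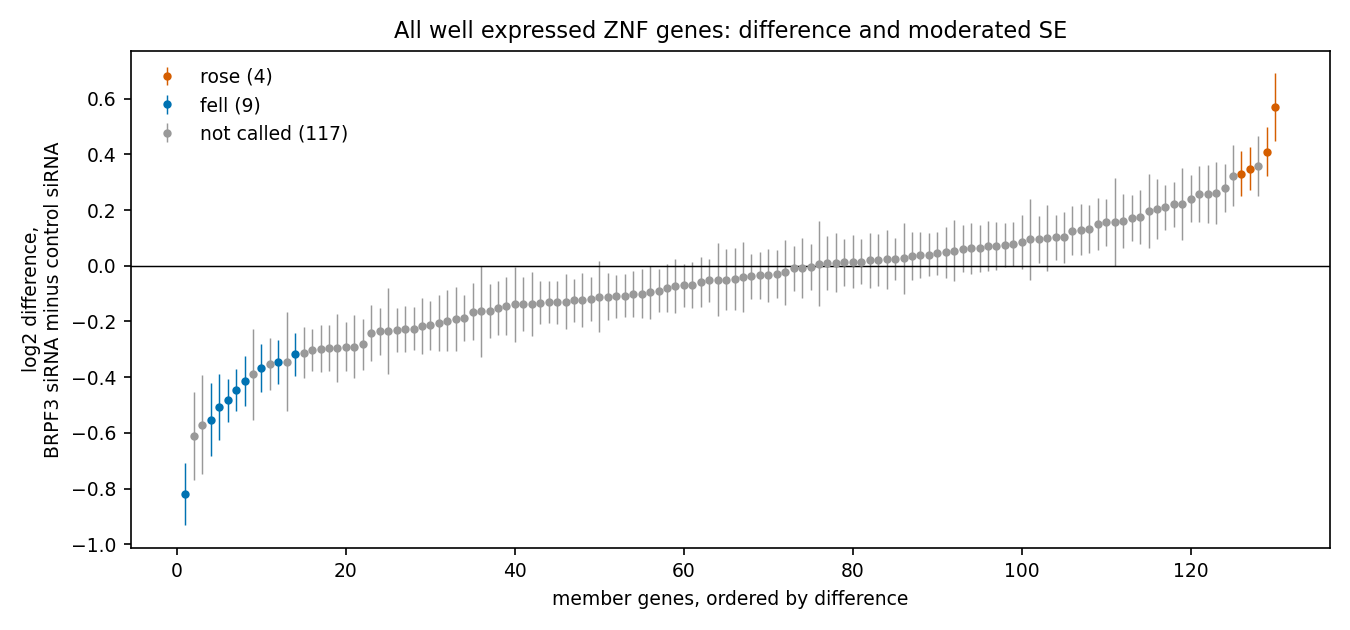
Log2 difference (BRPF3 siRNA minus control siRNA) of each of the 130 well expressed ZNF genes in order of its value, with limma's moderated SE as bars (2 arrays per group). The 9 fallen genes lie at the left end and the 4 risen genes at the right end, with uncalled genes of wider SE among them.

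ZNF860 had the lowest difference of the 130 genes. Its log2 values were 7.67 and 7.79 on the BRPF3 siRNA arrays, against 8.43 and 8.68 on the control siRNA arrays. Both BRPF3 siRNA arrays lay well below both control arrays, and the gene fell by 0.82 on the log2 scale, to 0.566 of the control level (-0.82 ± 0.11, adjusted p = 0.0148; errors here and below are moderated standard errors from limma, with 2 arrays in each group). This call held in 12 of 15 alternative settings. It was lost without moderation and without either control array, settings in which almost no gene at all was called.

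ZNF292, which encodes a large zinc finger protein mutated in a neurodevelopmental disorder, measured 7.18 and 7.31 after BRPF3 siRNA, against 7.63 and 7.97 after control siRNA. The groups did not overlap, but the control arrays differed from each other by more than the BRPF3 siRNA arrays did (-0.55 ± 0.13, adjusted p = 0.0436). ZNF597, an imprinted gene, measured 7.13 and 7.12 in BRPF3 siRNA cells and 7.79 and 7.48 in control siRNA cells. Here too the wider spread was in the controls, and the nearly equal BRPF3 siRNA arrays lay below both (-0.51 ± 0.12, adjusted p = 0.0418). Both calls were lost after quantile or cyclic loess normalization.

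ZNF277, whose protein binds the ribosomal protein RPS2, measured 7.52 and 7.50 on the BRPF3 siRNA arrays, against 8.01 and 7.97 on the control siRNA arrays, and the arrays of each group nearly coincided (-0.48 ± 0.08, adjusted p = 0.0187). ZNF205 measured 6.93 and 6.78 after BRPF3 siRNA, against 7.28 and 7.25 after control siRNA (-0.41 ± 0.09, adjusted p = 0.0357), so that its BRPF3 siRNA arrays lay under the bound of 7 while its controls lay above it. ZNF581 measured 7.64 and 7.75 in BRPF3 siRNA cells and 8.10 and 8.03 in control siRNA cells (-0.37 ± 0.09, adjusted p = 0.0424). Its groups were separate, and its call was lost after quantile normalization, cyclic loess and with the replicate number as a block.

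Among the members that rose, ZNF672 had the highest difference. It measured 7.58 and 7.90 on the BRPF3 siRNA arrays, against 7.15 and 7.19 on the control siRNA arrays. The BRPF3 siRNA arrays differed from each other by more than the controls did, and the level rose 1.48-fold (0.57 ± 0.12, adjusted p = 0.0344). ZNF185, which in spite of its name encodes an actin-associated LIM domain protein, measured 8.78 and 8.71 after BRPF3 siRNA, against 8.27 and 8.40 after control siRNA, a rise of 1.33-fold (0.41 ± 0.09, adjusted p = 0.0344). ZNF70 measured 7.95 and 7.99 in BRPF3 siRNA cells and 7.62 and 7.62 in control siRNA cells, with nearly equal arrays within each group (0.35 ± 0.08, adjusted p = 0.0372). ZNF75A measured 8.87 and 8.83 on the BRPF3 siRNA arrays, against 8.48 and 8.57 on the control siRNA arrays (0.33 ± 0.08, adjusted p = 0.0468). All 4 were separated between the groups, as were 72.5% of all tested genes with a mean of at least 7. The 4 genes kept their call under quantile normalization and cyclic loess. They lost it without BRPF3 siRNA replicate 2 and without an intensity filter, where 2.75% of all genes were called. Without BRPF3 siRNA replicate 1 the calls of ZNF185, ZNF70 and ZNF75A were lost too. All 4 calls were also lost without moderation and without either control array, settings in which almost no gene at all was called. ZNF75A also lost it with the replicate number as a block.

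**Figure D3:**
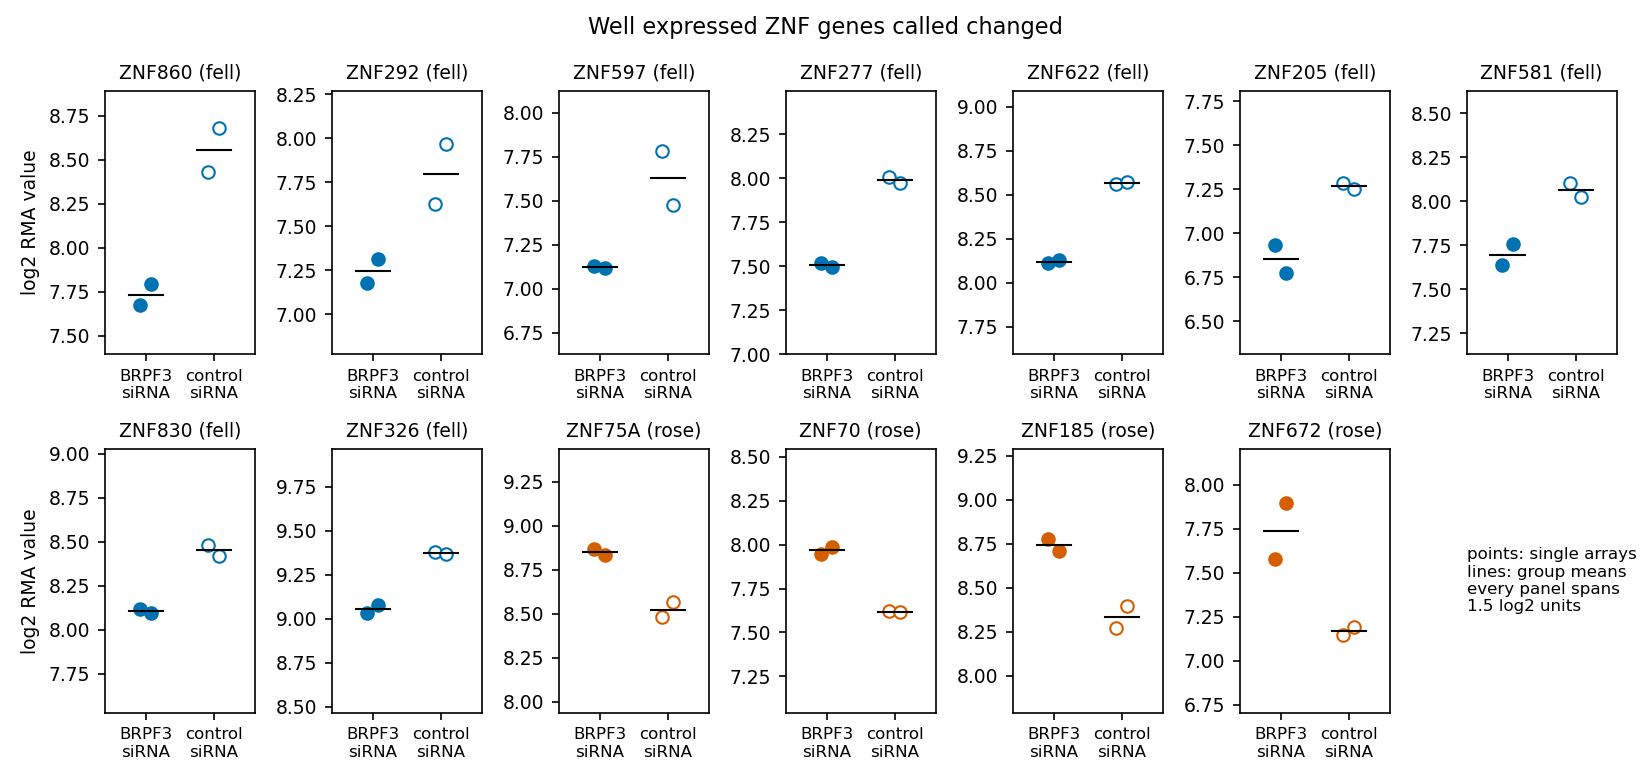
Log2 RMA values on single arrays of the 13 well expressed ZNF genes called changed, with BRPF3 siRNA arrays (filled) left of control siRNA arrays (open), group means as lines and a span of 1.5 log2 units in every panel. In each of the 13 panels the 2 groups do not overlap, from ZNF860 with a difference of -0.82 to ZNF672 with 0.57. The genes were called on these same values, and the groups also did not overlap for 63.2% of all genes tested.

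The promoters of 6 called genes are shown because each holds, within 200 bases before the gene start, letters that several transcription factors of housekeeping promoters are known to bind. The sequences are RefSeq's, build GRCh38.p14, 5′ to 3′ on the gene's strand, and end at the base before the start. Capitals mark the ETS letters CCGGAAG, the ZNF143 letters ACTACAA and the CRE letters TGACGT, or their reverse complements.
ZNF860 (chr3:31981550-31981749, plus strand): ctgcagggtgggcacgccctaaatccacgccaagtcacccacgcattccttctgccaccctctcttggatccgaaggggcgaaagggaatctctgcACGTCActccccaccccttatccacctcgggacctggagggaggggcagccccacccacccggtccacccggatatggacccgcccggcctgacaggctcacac
ZNF597 (chr16:3443505-3443704, minus strand): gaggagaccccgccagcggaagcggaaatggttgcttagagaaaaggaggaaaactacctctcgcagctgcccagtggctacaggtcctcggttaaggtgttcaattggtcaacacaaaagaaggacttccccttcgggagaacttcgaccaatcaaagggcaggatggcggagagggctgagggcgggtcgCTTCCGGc
ZNF277 (chr7:112206495-112206694, plus strand): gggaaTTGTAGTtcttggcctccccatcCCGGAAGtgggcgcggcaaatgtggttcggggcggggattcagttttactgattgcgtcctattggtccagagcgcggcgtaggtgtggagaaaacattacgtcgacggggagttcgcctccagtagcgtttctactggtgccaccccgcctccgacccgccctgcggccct
ZNF622 (chr5:16465801-16466000, minus strand): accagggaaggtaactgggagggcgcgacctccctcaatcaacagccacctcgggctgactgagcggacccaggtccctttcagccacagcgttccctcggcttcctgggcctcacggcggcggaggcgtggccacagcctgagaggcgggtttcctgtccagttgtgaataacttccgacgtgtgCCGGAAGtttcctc
ZNF830 (chr17:34961340-34961539, plus strand): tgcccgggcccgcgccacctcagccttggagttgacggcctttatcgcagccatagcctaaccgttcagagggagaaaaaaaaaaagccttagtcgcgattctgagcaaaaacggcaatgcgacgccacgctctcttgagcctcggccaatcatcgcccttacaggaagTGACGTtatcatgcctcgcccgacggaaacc
ZNF70 (chr22:23751113-23751312, minus strand): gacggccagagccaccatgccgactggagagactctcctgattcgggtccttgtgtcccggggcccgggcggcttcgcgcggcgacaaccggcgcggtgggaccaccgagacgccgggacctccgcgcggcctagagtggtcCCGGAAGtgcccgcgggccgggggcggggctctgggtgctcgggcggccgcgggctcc
In ZNF277 the ZNF143 letters begin 195 bases and the ETS letters 172 bases before the start. The ETS letters begin 8 bases before the start in ZNF597, 14 bases in ZNF622 and 58 bases in ZNF70. The CRE letters begin 104 bases before the start in ZNF860 and 31 bases in ZNF830. ZNF70 rose and the other 5 genes fell, so genes of both directions hold the ETS letters.

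RefSeq promoter windows of 300 bases (250 before and 50 after the start) were found for 116 of the 130 genes, with 147 windows in all because some genes have several starts. The ETS letters, on either strand, were in 36.1% of these windows, against 15.4% of the windows of all genes tested and 10.3% of all RefSeq windows. CRE letters were in 16.3% of the members' windows, against 10.0% for all genes tested and 7.98% for all windows. The ZNF143 letters ACTACAA, the first part of a longer known site, were in 10.9% of the members' windows, against 3.07% for all genes tested and 2.77% for all windows. TATAAA was in 3.40% of the members' windows, against 6.36% for all genes tested and 11.5% for all windows. The GC-box letters GGGCGG (68.0%, against 64.8% for all genes tested) and CCAAT (34.0%, against 34.1%) were about as frequent as among tested genes. NRF1 letters GCATGCGC were in 7.48% of the members' windows, against 4.47% for all genes tested, and YY1 letters AAGATGGC in 4.08%, against 4.32%. The median GC content was 63.0% for members and 64.7% for all genes tested, with a median of 24 CpG dinucleotides in both. Of the called genes, 2 of 4 risen and 3 of 9 fallen genes had a window with ETS letters. These are matches of letters, given as a description without a test.

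Among well expressed ZNF genes whose proteins act on RNA or in translation, 3 fell. This list of 8 genes was put together from known roles after the values had been seen, and it may leave out other members with such roles. Its counts and its shared direction therefore describe only these genes and support nothing. Of the 8 genes 0 rose and 5 did not pass, and all 8 differences were below 0, with a median of -0.30, beside -0.05 for all members. The fallen share was 37.5% of these 8 genes, where 9.44% of all genes tested fell and 12.4% of those with a mean of at least 7. ZNF622, a cytoplasmic factor in the maturation of the large ribosomal subunit, measured 8.11 and 8.13 on the BRPF3 siRNA arrays, against 8.56 and 8.57 on the control siRNA arrays, with arrays of a group almost equal (-0.45 ± 0.08, adjusted p = 0.0222). ZNF830, a spliceosome-associated protein, measured 8.12 and 8.09 after BRPF3 siRNA, against 8.48 and 8.42 after control siRNA (-0.35 ± 0.08, adjusted p = 0.0396). ZNF326, a subunit of a complex that couples RNA polymerase II elongation to splicing, measured 9.03 and 9.08 in BRPF3 siRNA cells and 9.38 and 9.37 in control siRNA cells (-0.32 ± 0.08, adjusted p = 0.0458). The groups were separate for all 3, as for 72.5% of all tested genes with a mean of at least 7. After quantile normalization the calls of ZNF830 and ZNF326 were lost and that of ZNF622 was kept. The replicate number as a block also ended the call of ZNF326.

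The other 5 genes of this list did not pass. ZNF473, which takes part in the end processing of histone messenger RNAs, differed by -0.30 ± 0.09, adjusted p = 0.0672. ZNF598, the ubiquitin ligase of collided ribosomes, measured 7.89 and 7.57 on the BRPF3 siRNA arrays, against 8.07 and 7.99 on the control siRNA arrays (-0.30 ± 0.12, adjusted p = 0.151), and its arrays were separate but wide in the BRPF3 siRNA group. ZNF593, a ribosome biogenesis factor, differed by -0.13 ± 0.08, adjusted p = 0.278. For the double-stranded RNA-binding protein ZNF346 the difference was -0.11 ± 0.13, adjusted p = 0.578, and for the RNA-binding protein ZNF638 it was -0.09 ± 0.08, adjusted p = 0.459.

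None of 9 well expressed members that work with chromatin enzymes was called, again in a list drawn up with the values known. In limma's test 0 of 9 passed after adjustment and 1 had an unadjusted p under 0.05, and 5 of the differences were above 0. Over all genes tested 15.8% were called and 34.65% had an unadjusted p under 0.05. The counts are therefore no result about the 9 genes as a group. ZNF592, ZNF687 and ZNF532 bind the chromatin reader ZMYND8. ZNF592 measured 9.79 and 9.95 on the BRPF3 siRNA arrays, against 9.78 and 9.70 on the control siRNA arrays (0.13 ± 0.09, adjusted p = 0.369). ZNF532 (-0.11 ± 0.08, adjusted p = 0.362) and ZNF687 (-0.19 ± 0.12, adjusted p = 0.296) differed by values below 0. ZNF644, a partner of the methyltransferases EHMT1 and EHMT2, measured 9.12 and 9.13 after BRPF3 siRNA, against 9.33 and 9.38 after control siRNA, separate but not called (-0.23 ± 0.08, adjusted p = 0.101). ZNF827, which brings the NuRD complex to telomeres in cells that maintain them by recombination, as U2OS cells do, measured 8.88 and 9.02 in BRPF3 siRNA cells and 8.57 and 8.81 in control siRNA cells (0.26 ± 0.11, adjusted p = 0.161). ZNF217, a partner of the demethylase KDM1A, differed by -0.12 ± 0.10, adjusted p = 0.41. The remaining 3 were ZNF335 (0.09 ± 0.10, adjusted p = 0.571), ZNF518A (0.13 ± 0.09, adjusted p = 0.328) and ZNF518B (0.08 ± 0.08, adjusted p = 0.528).

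Of 8 sequence-specific activators and regulators among the members, also picked with the values known, 0 were called in limma's test and 3 had an unadjusted p under 0.05. The shares over all genes tested were 15.8% called and 34.65% with an unadjusted p under 0.05. These counts therefore say nothing about the 8 genes as a group. ZNF410, an activator of the NuRD remodeller gene CHD4, measured 8.02 and 8.08 on the BRPF3 siRNA arrays, against 8.28 and 8.44 on the control siRNA arrays. Its arrays were separate and the difference did not pass (-0.31 ± 0.09, adjusted p = 0.07). ZNF143, which activates small nuclear RNA genes among others, measured 7.56 and 7.49 after BRPF3 siRNA, against 7.67 and 7.75 after control siRNA (-0.19 ± 0.08, adjusted p = 0.172). ZNF148 differed by -0.21 ± 0.09, adjusted p = 0.149 and ZNF24 by -0.28 ± 0.09, adjusted p = 0.088. ZNF281, a regulator of pluripotency and epithelial-mesenchymal genes, measured 9.14 and 9.24 in BRPF3 siRNA cells and 8.97 and 8.99 in control siRNA cells, higher on both BRPF3 siRNA arrays without passing (0.21 ± 0.08, adjusted p = 0.133). ZNF384 (-0.00 ± 0.08, adjusted p = 0.971), ZNF263 (0.04 ± 0.09, adjusted p = 0.799) and ZNF711 (0.20 ± 0.13, adjusted p = 0.346) had overlapping arrays.

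A further 12 members had an adjusted p from 0.05 to under 0.1, 9 below 0 and 3 above. They were ZNF114, ZNF484, ZNF507, ZNF621, ZNF473, ZNF410, ZNF200, ZNF284 and ZNF24 on the lower side and ZNF460, ZNF747 and ZNF655 on the higher side. The nearest to the threshold, ZNF114, measured 8.04 and 8.01 on the BRPF3 siRNA arrays, against 8.34 and 8.31 on the control siRNA arrays, with tight groups (-0.30 ± 0.08, adjusted p = 0.0505). ZNF484 had a larger difference and a wider spread, with 7.03 and 6.60 after BRPF3 siRNA, against 7.52 and 7.34 after control siRNA (-0.61 ± 0.16, adjusted p = 0.0531). ZNF460 had the highest difference of the uncalled members, with 8.62 and 8.71 in BRPF3 siRNA cells and 8.19 and 8.43 in control siRNA cells (0.36 ± 0.11, adjusted p = 0.073). ZNF284 measured 6.68 and 7.14 on the BRPF3 siRNA arrays, against 7.33 and 7.63 on the control siRNA arrays, where the arrays of each group lay far apart (-0.57 ± 0.18, adjusted p = 0.0826). With an intensity trend in eBayes 10 members rose and 20 fell, 23.1% of the members, where 24.7% of all genes tested were called. The number of calls thus depends on how the variance is modelled.

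By position, the 45 members on chromosome 19 held 1 of the 13 calls and the 85 members on other chromosomes held 12, in the RefSeq gene table of GRCh38.p14. These shares, 2.22% and 14.1%, both lay under the 15.8% called among all genes tested and the 19.4% among those with a mean of at least 7. The call on chromosome 19 was the fall of ZNF581. Chromosome 19 members had a median difference of -0.03, with a range from -0.57 to 0.36, and 21 of 45 were above 0. On the other chromosomes the median was -0.05, with a range from -0.82 to 0.57. The typical size of a difference was 0.13 in both sets, and the difference between the 2 shares of calls was not tested. The 119 less bright ZNF genes on chromosome 19 held 9 calls (7.56%), 3 risen and 6 fallen, also under the 15.8% of all genes tested.

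Neighbouring members did not share 1 direction throughout. With up to 5 other protein-coding genes allowed between neighbours, 49 of the 130 genes fell into 16 runs, and 10 of the runs held differences on both sides of 0. One run on chromosome 16 held a risen gene together with fallen ones: ZNF205, ZNF200, ZNF263, ZNF75A, ZNF174 and ZNF597 in this order. There ZNF205 and ZNF597 fell and ZNF75A rose, as given above, while ZNF200 (-0.29 ± 0.09, adjusted p = 0.0761), ZNF263 (0.04 ± 0.09, adjusted p = 0.799) and ZNF174 (0.01 ± 0.11, adjusted p = 0.952) did not pass. ZNF205, ZNF75A and ZNF597 all kept their direction in the 15 alternative settings, which their separate arrays made nearly certain in advance. The number of settings that ended a call was 6 for ZNF205, 7 for ZNF75A and 8 for ZNF597. Among these are settings without moderation or without a control array, in which almost no gene at all was called.

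The longest run, on chromosome 19, held ZNF264, ZNF805, ZNF460, ZNF543, ZNF304, ZNF548 and ZNF749. None was called, and the differences ranged from -0.07 to 0.36, with 5 above 0 and 2 below. A second run there, ZNF283, ZNF45, ZNF284 and ZNF227, had 4 of 4 differences below 0, from -0.57 to -0.03, with 0 called. In the pair ZNF581 and ZNF580, ZNF581 fell while ZNF580 measured 7.91 and 7.97 on the BRPF3 siRNA arrays, against 7.84 and 7.73 on the control siRNA arrays (0.16 ± 0.08, adjusted p = 0.248). The pair ZNF672 and ZNF692 combined the rise of ZNF672 with a difference of -0.03 ± 0.09 for ZNF692 (adjusted p = 0.805).

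Some members have close copies that the probes may not separate. ZNF417 (0.02 ± 0.09, adjusted p = 0.892) and ZNF286A (-0.14 ± 0.11, adjusted p = 0.377) are near-identical to neighbouring family members, so the share of each copy in their values is uncertain. In 6 members a second probe set of the same gene could be compared. For ZNF322 both were lower after BRPF3 siRNA: the brighter probe set averaged 7.88 in BRPF3 siRNA cells and 8.27 in control siRNA cells, a difference of -0.39, and the dimmer 6.12 in BRPF3 siRNA cells and 6.62 in control siRNA cells, a difference of -0.49 ± 0.09. The brighter one, which stands for the gene here, did not pass (-0.39 ± 0.16, adjusted p = 0.156). In the other 5 genes, ZNF384, ZNF445, ZNF451, ZNF551 and ZNF770, the differences of both probe sets lay between -0.15 and 0.06.

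None of the 6 members with the highest values was called (adjusted p in limma's test from 0.362 to 0.971). RMA values of different probe sets are not on a common scale, so their order is not an order of transcript numbers. ZNF207, which binds BUB3 and acts at kinetochores, measured 10.28 and 10.32 on the BRPF3 siRNA arrays, against 10.40 and 10.42 on the control siRNA arrays (-0.11 ± 0.08, adjusted p = 0.374). ZNF146 measured 10.25 and 10.32 after BRPF3 siRNA, against 10.42 and 10.27 after control siRNA, with overlapping groups (-0.06 ± 0.09, adjusted p = 0.677). ZNF384 measured 10.30 and 10.31 in BRPF3 siRNA cells and 10.36 and 10.26 in control siRNA cells, also overlapping, and was the member with the smallest difference in size. ZNF106 differed by -0.02 ± 0.12, adjusted p = 0.898. The next smallest differences in size were those of ZNF749 (0.01 ± 0.15), ZNF629 (-0.01 ± 0.11) and ZNF805 (0.01 ± 0.10), each with overlapping arrays. ZNF749 shows how an average can hide spread, with 7.47 and 7.92 on the BRPF3 siRNA arrays, against 7.66 and 7.72 on the control siRNA arrays.

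Around the bound of 7 the choice of members was a matter of small steps. Just inside lay ZNF175 with a mean of 7.02, ZNF205 with 7.06, ZNF653 with 7.07 and ZNF286A with 7.07. Just outside lay ZNF274 with 6.99, ZNF639 with 6.96, ZNF420 with 6.95 and ZNF320 with 6.93. Of the genes just outside, ZNF639 fell in limma's test (-0.37 ± 0.09, adjusted p = 0.0424) and the rest were not called. A bound of 6 gave 20 called members and a bound of 8 gave 6. No share of all genes is given beside these counts, so they are no result about the members as a group.

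**Figure D4:**
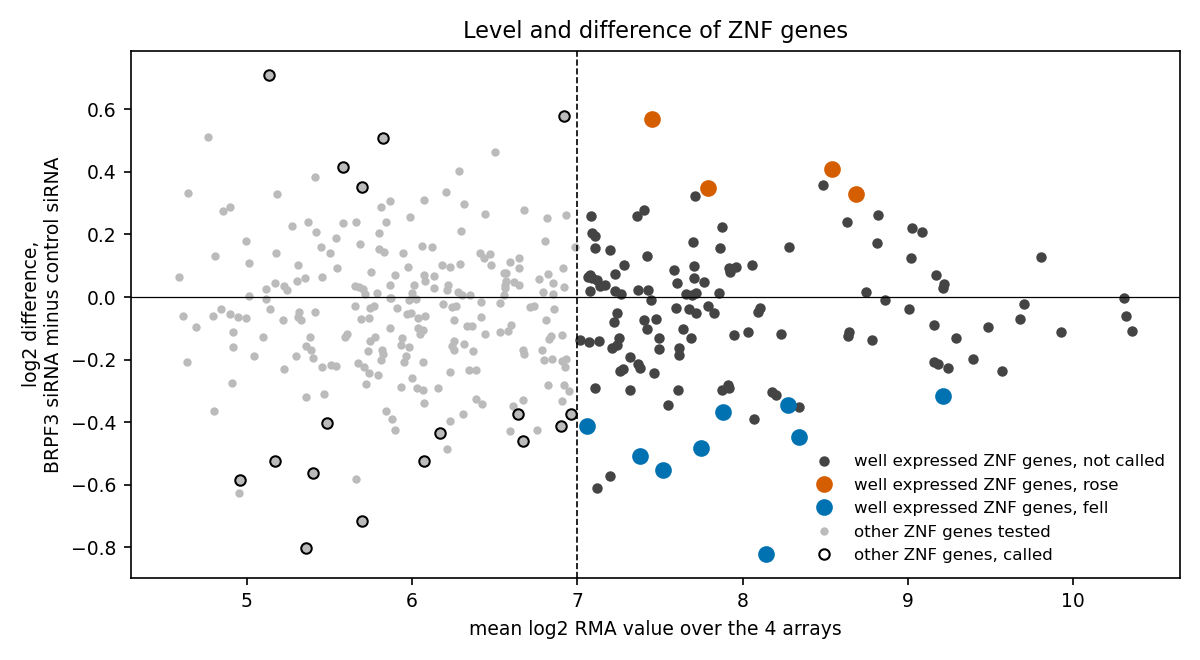
Mean log2 RMA value over the 4 arrays (x axis) against the log2 difference, BRPF3 siRNA minus control siRNA (y axis), for the 130 well expressed ZNF genes right of the dashed line at 7 and the 243 other tested ZNF genes left of it. Risen members are orange and fallen ones blue, called genes left of the line are ringed, and the called genes lie at the upper and lower edges on both sides.

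Of the 243 less bright ZNF genes 5 rose and 12 fell, and 226 were not called. The called share was 7.0%, where 15.8% of all genes tested were called, 6.32% risen and 9.44% fallen, so the count is no result about these genes as a group. Their median difference was -0.05. ZNF471 (0.71 ± 0.10, adjusted p = 0.0153), ZNF319 (0.58 ± 0.10, adjusted p = 0.023) and ZNF610 (0.51 ± 0.08, adjusted p = 0.021) had the largest rises. ZNF474 (-0.80 ± 0.14, adjusted p = 0.0214), ZNF223 (-0.71 ± 0.11, adjusted p = 0.0184) and ZNF701 (-0.59 ± 0.11, adjusted p = 0.0266) had the largest falls. ZNF471 measured 5.55 and 5.43 on the BRPF3 siRNA arrays, against 4.69 and 4.87 on the control siRNA arrays, close to the filter in control cells, where RMA compresses differences.

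Several genes of corepressors and heterochromatin were called after BRPF3 siRNA, among genes listed with earlier results of these data known. A list of 40 genes of the TRIM28 corepressor and heterochromatin held 33 tested genes, of which 2 rose and 7 fell, with 24 uncalled (27.3% called, where 15.8% of all genes tested and 19.4% of those with a mean of at least 7 were called; the list's median level was 8.82). The median difference of the list was -0.05, beside -0.03 over all genes tested, and the difference in shares was not tested. Quantile normalization and cyclic loess each ended the calls of CBX3, PPHLN1 and KDM1A, and the replicate number as a block ended those of CBX1, PPHLN1 and KDM1A. With 1 array left out few or none of the list were called, and far fewer of all genes tested as well. TRIM28 itself measured 10.48 and 10.47 on the BRPF3 siRNA arrays, against 10.66 and 10.60 on the control siRNA arrays, separate but not called (-0.15 ± 0.08, adjusted p = 0.228). SETDB1 was not analysed here.

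Among the HP1 proteins, which bind methylated H3K9, 2 genes fell and 1 rose. CBX5 (HP1 alpha) measured 7.88 and 8.16 after BRPF3 siRNA, against 8.83 and 8.85 after control siRNA and fell (-0.82 ± 0.11, adjusted p = 0.0148). CBX3 (HP1 gamma) measured 9.31 and 9.37 in BRPF3 siRNA cells and 9.77 and 9.68 in control siRNA cells and fell (-0.38 ± 0.08, adjusted p = 0.0355). CBX1 (HP1 beta) measured 9.72 and 9.75 on the BRPF3 siRNA arrays, against 9.38 and 9.43 on the control siRNA arrays and rose (0.34 ± 0.08, adjusted p = 0.0411). CBX1 and CBX5 kept their calls under both other normalizations, but that of CBX1 was lost with the replicate number as a block (limma's adjusted p = 0.0518).

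Within the NuRD and CoREST complexes the remodeller CHD4 measured 10.67 and 10.74 on the BRPF3 siRNA arrays, against 11.20 and 11.30 on the control siRNA arrays and fell to 0.686 of the control level (-0.54 ± 0.08, adjusted p = 0.0181). Its activator ZNF410 is a member described above and was not called. CHD3, the related remodeller, differed by -0.07 ± 0.08, adjusted p = 0.551. The deacetylase HDAC2 fell (-0.37 ± 0.08, adjusted p = 0.0348), while HDAC1 did not pass (-0.26 ± 0.08, adjusted p = 0.0861). KDM1A, the demethylase of CoREST, fell (-0.32 ± 0.08, adjusted p = 0.0445). Other subunits on the list did not pass and lay on both sides of 0. MTA1 was the highest, separate between the groups (0.29 ± 0.08, adjusted p = 0.0583), followed by GATAD2A (0.16 ± 0.09, adjusted p = 0.249), and the histone-binding RBBP4 was the lowest (-0.21 ± 0.08, adjusted p = 0.117). GATAD2B differed by 0.05 ± 0.08, the CoREST scaffold RCOR1 by 0.05 ± 0.10, the methylated DNA reader MBD2 by 0.01 ± 0.08 and RBBP7 by -0.03 ± 0.08, each with overlapping arrays.

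ATF7IP2, a relative of the SETDB1 cofactor ATF7IP, had the largest change of the list, with 6.45 and 6.22 after BRPF3 siRNA, against 7.60 and 7.67 after control siRNA (-1.30 ± 0.10, adjusted p = 0.00756), whereas ATF7IP itself differed by -0.20 ± 0.08, adjusted p = 0.154. PPHLN1, a subunit of the HUSH silencing complex, fell (-0.36 ± 0.08, adjusted p = 0.0382), and its partner MPHOSPH8 did not pass (-0.05 ± 0.09, adjusted p = 0.7). The de novo DNA methyltransferase DNMT3B measured 7.72 and 7.77 in BRPF3 siRNA cells and 7.33 and 6.97 in control siRNA cells and rose 1.51-fold (0.60 ± 0.13, adjusted p = 0.038), with a wide spread between the controls. Its relative DNMT3A differed by 0.38 ± 0.13, adjusted p = 0.0977, and the maintenance methyltransferase DNMT1 by 0.17 ± 0.08, adjusted p = 0.186.

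**Figure D5:**
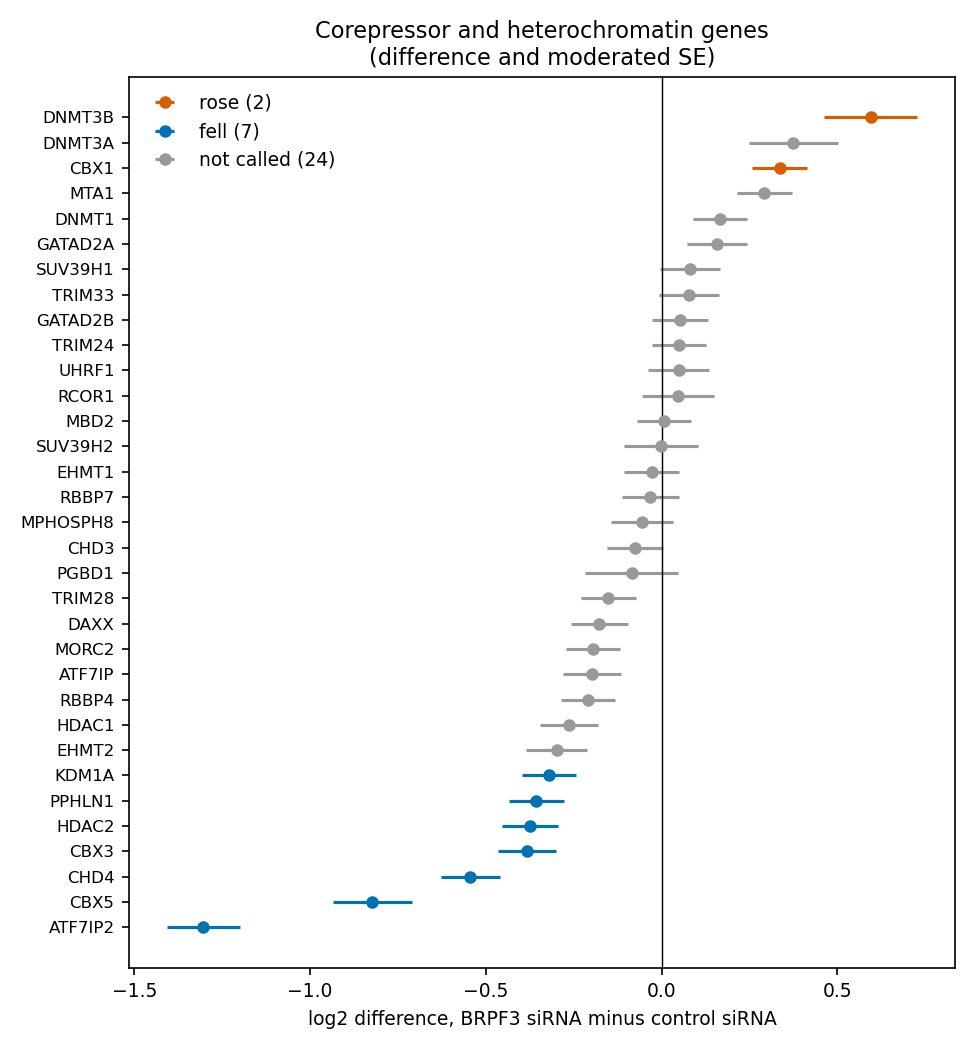
Log2 difference (BRPF3 siRNA minus control siRNA) with limma's moderated SE as bars for the 33 tested genes of the corepressor and heterochromatin list, 2 arrays per group. DNMT3B and CBX1 rose (orange), and 7 genes from KDM1A to ATF7IP2 fell (blue).

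Other families of C2H2 transcription factors also held few called genes. Among 36 ZBTB genes 2 rose and 2 fell, among 24 ZSCAN and ZKSCAN genes 1 rose and 1 fell, among 15 ZFP genes 1 rose and 0 fell, and among 26 KLF and SP genes 1 rose and 1 fell. These are 11.1%, 8.33%, 6.67% and 7.69% of the families in this order, under the 15.8% of all genes tested, so the counts are no result about the families. ZBTB33 (Kaiso), which binds methylated DNA, fell furthest, to 0.468 of the control level, with 6.02 and 6.12 on the BRPF3 siRNA arrays, against 7.08 and 7.26 on the control siRNA arrays (-1.10 ± 0.10, adjusted p = 0.00824). ZBTB43 also fell (-0.36 ± 0.08, adjusted p = 0.037), while ZBTB25 (0.55 ± 0.10, adjusted p = 0.0265) and ZBTB22 (0.36 ± 0.09, adjusted p = 0.0497) rose. The call of ZBTB22 was lost after quantile normalization (limma's adjusted p = 0.0533), cyclic loess (0.0513) and with the replicate number as a block (0.0617). ZKSCAN3, a repressor of lysosomal and autophagy genes, fell (-0.82 ± 0.12, adjusted p = 0.0153) and ZSCAN31 rose (0.86 ± 0.09, adjusted p = 0.00985). ZFP3 (0.60 ± 0.09, adjusted p = 0.0186) and KLF14 (0.75 ± 0.13, adjusted p = 0.0234) rose, and KLF9 fell (-0.50 ± 0.09, adjusted p = 0.0267).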

How the data were processed

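Transcripts of U2OS cells were measured on Affymetrix whole-transcript arrays, 1 per sample. The authors' deposited table holds log2 values for 53617 probe sets, made with RMA per the submitters' processing notes; no version or setting of RMA is stated in what was used here. They were used as deposited, without further normalization. A shift shared by all transcripts cannot be seen after such normalization, and RMA compresses the differences of dim probe sets.

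The platform annotation gave 16098 probe sets a single symbol, and the other 37519, without one, stood for no gene. RefSeq's GRCh38.p14 gene table gave gene class, chromosome and gene order, and changed 0 symbols. One probe set stood for each of 14884 genes (the highest mean). Groups and replicate numbers came from the sample titles. limma 3.58.1 in R 4.3.3 (lmFit, eBayes) was fitted with group as factor, 2 residual degrees of freedom and 3.81 from the prior, two-sided. An exact permutation test of 2 against 2 arrays cannot reach the threshold, with only 3 ways to split them, so the calls rest on variance shared between genes. Precision is limited by having 2 arrays per group.

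The members, lists and alternatives were chosen with earlier results of these data known. Named are the 12 largest rises and falls among called members (all where fewer), the 6 members of highest level, 4 on each side of the bound, the 4 of smallest difference, called genes of the corepressor list and TRIM28, and up to 3 called genes per direction of the other families. Any other gene printed with values was picked with its values known. A description of protein motifs was planned and not made, as no protein sequences were used here. The procedure was tested on simulated data for this comparison (10 sets of 10696 genes, variances drawn from the fit's prior). It gave back 40.8% of 1.5-fold and 89.1% of 2-fold changes, with 4.27% false calls among those made. Far fewer genes were changed in the simulation than were called in the data, and its noise followed the test's own model. These shares therefore check the procedure and do not measure recovery or false calls in the data.

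Replicate numbers are shared between the groups, but the labels name no shared day or batch, so the numbers were not used as a block.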

Additional observations from a re-analysis of the deposited data

How the results depend on the processing

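The number of well expressed ZNF genes called, 13 (4 risen, 9 fallen), moved most with the variance model and the genes tested, as did the calls over all genes. It was 30 (10 risen, 20 fallen) with an intensity trend in eBayes, 31 (9 and 22) with the filter at the 75th percentile, 25 (7 and 18) at an adjusted p under 0.1, 1 (0 and 1) without an intensity filter and 0 (0 and 0) without moderation. These are 23.1% of the members with the trend, where 24.7% of all genes tested were called, and 23.8% with the 75th percentile filter, where 34.1% were called. Without an intensity filter they are 0.769% of the members, where 2.75% of all genes were called. Without moderation 1 of all 10696 genes tested was called. Cyclic loess gave 8 with 4 fallen, and quantile normalization 4 fallen. Of all genes tested 736 and 718 fell in these settings, against 1010 before rescaling. A bound of 6 gave 20 with 15 fallen, and a bound of 8 gave 6 (2 risen, 4 fallen). The counts at these bounds and at an adjusted p under 0.1 have no share of all genes beside them and are no result about the members. With 1 array left out the count ran from 0 to 3, with 0 to 1 risen and 0 to 3 fallen; there the single array of a group takes its spread from the pair in the other group. The other ZNF genes called, 17, were 26 with the trend, 37 at an adjusted p under 0.1, 1 without a filter, 0 without moderation and 0 to 12 with 1 array left out. Of the corepressor list, 9 called, 15 were called with the trend, 2 without a filter, 0 without moderation and 0 to 3 with 1 array left out. The cause of these shifts was not tested, apart from the more or fewer genes that a filter leaves.

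The 13 called members kept their sign in each of the 15 alternative fits, which was nearly fixed in advance. Their arrays did not overlap between the groups, so leaving 1 array out could not turn a sign. Most other fits used the same values. The median difference of the members, -0.05, ran from -0.08 to -0.02 with 1 array left out and was 0.01 after both quantile normalization and cyclic loess. With the replicate block 12 members were called (3 risen, 9 fallen), and the calls of ZNF75A, ZNF581 and ZNF326 were lost, as were those of CBX1, PPHLN1, KDM1A and ZBTB22. Deviations of same-numbered arrays correlated at 0.14 across all genes tested and at 0.30 across the members, from 1 pair of deviations each.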
